A study of Homo sapiens with 6 samples.

Results

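The KLF and SP transcription factors described here are 10 genes, SP1, SP2, SP3, SP4, SP6, KLF2, KLF3, KLF6, KLF10 and KLF13, of the 19779 genes with a value in every library. They were taken by gene symbol from a table of normalized RNA abundance and were chosen by values of the same comparison that is reported, with the rise of SP6 among the reasons. Their levels and differences are therefore a description, and no p-value is given for them. The samples were 6 untreated cultures in exponential growth of the human leukemia line SET-2, an established line of megakaryoblastic character that the labels call secondary acute myeloid leukemia. Of these, 3 were the parental line and 3 were SET-2 OTX P/R, a derivative whose label is read here as persister or resistant to OTX, the BET bromodomain inhibitor birabresib. Both groups were grown in RPMI medium with fetal bovine serum, and no drug was present in either. The labels name 1 derivative line, so differences that came with resistance and other differences between the lines cannot be told apart. The libraries are not said to come from separate derivations, and the spread between them may be technical.

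KLF and SP proteins share a DNA-binding domain of Cys2His2 zinc fingers at the carboxyl end, which contacts GC boxes and the related CACCC boxes of promoters and enhancers. Outside this domain they differ: the SP factors carry glutamine-rich or proline-rich activation regions, a group of KLF factors recruits the SIN3A corepressor, and another recruits the corepressor CtBP. In blood, KLF1 drives the genes of red cell maturation, KLF3 acts downstream of it as a repressor, and KLF2 keeps lymphocytes quiescent.

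The promoters of these factors often hold the box that the family itself binds, so the bases before the start site are shown for the member that fell (KLF6), the relative outside the 10 that rose (KLF16), the most abundant SP factor (SP1) and the most abundant gene of the whole family (KLF1). The sequences are from RefSeq on GRCh38.p14, 250 bases 5′ to 3′ on the strand of the gene and ending at the base before the start site, at chr10:3785210-3785459 on the minus strand for KLF6, chr19:1863580-1863829 on the minus strand for KLF16, chr12:53379926-53380175 on the plus strand for SP1 and chr19:12887202-12887451 on the minus strand for KLF1. Capitals mark the GC box, GGGCGG on either strand.
KLF6: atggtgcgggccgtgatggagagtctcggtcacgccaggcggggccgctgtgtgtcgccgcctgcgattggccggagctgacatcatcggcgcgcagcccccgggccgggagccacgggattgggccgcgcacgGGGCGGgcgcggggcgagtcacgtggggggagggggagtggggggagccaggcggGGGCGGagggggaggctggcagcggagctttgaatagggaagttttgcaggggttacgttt
KLF16: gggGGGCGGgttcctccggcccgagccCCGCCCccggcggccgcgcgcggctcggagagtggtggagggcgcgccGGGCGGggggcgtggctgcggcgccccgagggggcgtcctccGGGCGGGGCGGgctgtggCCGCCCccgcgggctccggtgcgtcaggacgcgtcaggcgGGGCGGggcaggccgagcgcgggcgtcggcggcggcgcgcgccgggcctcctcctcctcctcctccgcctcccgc
SP1: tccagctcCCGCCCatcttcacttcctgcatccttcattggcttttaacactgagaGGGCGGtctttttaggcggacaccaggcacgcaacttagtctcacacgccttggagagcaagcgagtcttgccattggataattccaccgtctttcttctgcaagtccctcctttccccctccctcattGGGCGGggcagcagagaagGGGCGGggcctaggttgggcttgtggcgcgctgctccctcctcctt
KLF1: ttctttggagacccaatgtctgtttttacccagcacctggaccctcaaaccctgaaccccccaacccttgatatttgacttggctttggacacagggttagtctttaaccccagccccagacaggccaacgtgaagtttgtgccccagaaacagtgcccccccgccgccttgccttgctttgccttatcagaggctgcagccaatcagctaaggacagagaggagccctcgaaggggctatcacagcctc
The stretch before KLF6 holds 2 GC boxes, that of KLF16 holds 7, that of SP1 holds 4 and that of KLF1 holds none. Windows of 300 bases, 250 before to 50 after a start, were matched for 7 of the 10 members, some with more than 1 start. All 10 windows of these 7 genes hold a GC box on either strand, as do 44.9% of the 34796 distinct RefSeq windows of this length. SP1 has 4 and 10 boxes in its 2 windows, KLF2 has 6, SP4 has 4 and KLF13 has 3, while 15.8% of all windows have 3 or more. SP2 and KLF6 have 2 each, and SP3 has 2, 2 and 1 in its windows. Bases G and C make up 58.0% to 83.3% of the member windows, and this share was not computed for all windows. The CACCC box, searched as CCACCC on either strand and counted apart from the GC box, is in 4 of the 10 member windows and in 34.3% of all windows. KLF1 has 1 such box, in the bases after its start. These are matches of letters and do not show binding.

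Values are normalized abundances from StringTie, scaled by transcript length, with the same set of values in each library, so a level tells the rank of a gene in its library. Differences are OTX P/R minus parental on the scale log2(value + 1), which understates the change of low genes. They come from limma, fitted over the 10741 genes with a mean of at least 1, and a gene is called higher or lower at an adjusted p under 0.05. Errors of levels are SDs over n = 3 libraries per group, and errors of differences are standard errors (SE) with 95% intervals. The sums of the libraries lay between 419375 and 419437 because of this normalization, and the sequencing depth is unknown. Over all tested genes the median difference was 0.02 and the median size of a difference was 0.21.

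Among the members, SP6 and KLF10 were higher in the OTX P/R line and KLF6 was lower. The widely expressed factors SP1, SP2, SP3, KLF3 and KLF13 lay within 0.11 log2 units of their parental level and were not called. SP4 was not called either, and KLF2 was too low to be tested. So 3 of the 9 tested members, or 33.3%, were called, 2 higher and 1 lower, where 36.1% of all tested genes were called, 18.6% higher and 17.5% lower. This share is near that of all genes. Their median difference was 0.00.

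**Figure D1:**
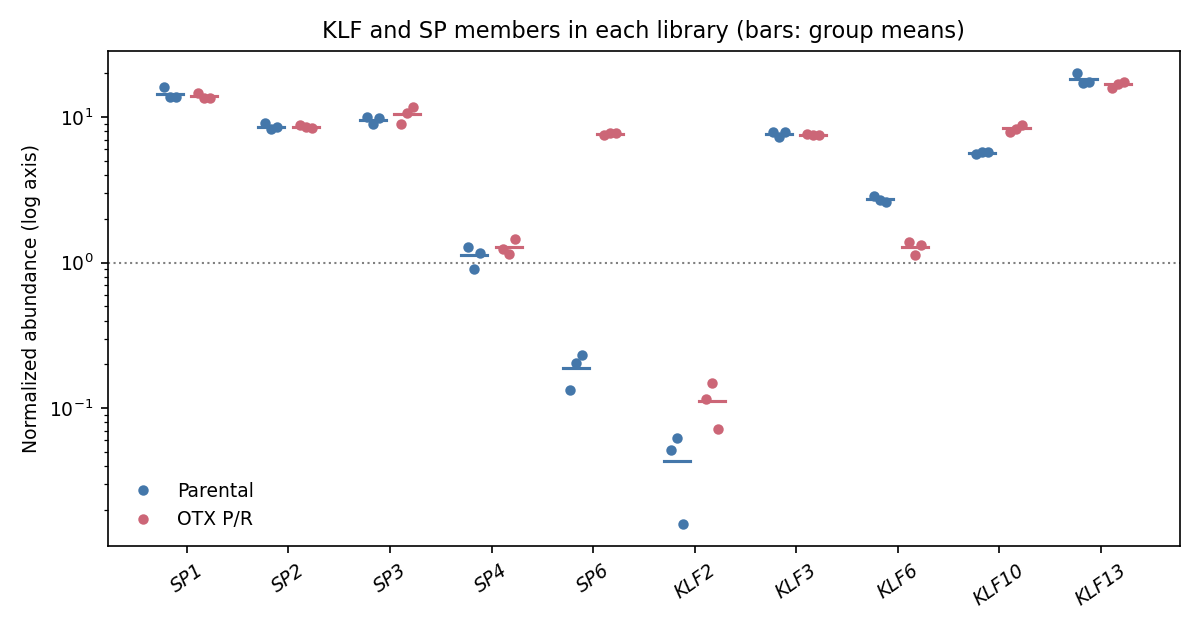
Normalized abundance of the 10 members in each library, on a log axis. Each point is a library, each bar the mean of a group of 3, and the dotted line the minimum mean of 1 used for testing. SP6 lies between 0.133 and 0.230 in the parental libraries and between 7.52 and 7.76 in the OTX P/R libraries, while the points of SP1, SP2, SP3, SP4, KLF3 and KLF13 overlap.

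SP1, the founding member and a general activator at GC boxes, on chromosome 12, stood at 16.0, 13.8 and 13.7 in parental libraries 1, 2 and 3 and at 14.6, 13.5 and 13.6 in OTX P/R libraries 1, 2 and 3. The groups overlapped, and library 1 was the highest of each. The means were 14.5 ± 1.31 and 13.9 ± 0.601, a difference of -0.05 ± 0.08 (SE; interval -0.24 to 0.13). SP3, which binds the same boxes and can activate or repress, on chromosome 2, stood at 10, 8.94 and 9.91 in the parental libraries and at 8.96, 10.6 and 11.7 in the OTX P/R libraries. Its groups also overlapped, with OTX P/R library 1 level with the lowest parental library. The difference was 0.10 ± 0.10 (SE; interval -0.15 to 0.35), around means of 9.63 ± 0.601 and 10.4 ± 1.37. The ratio of SP1 to SP3 within a library was 1.60, 1.54 and 1.38 in parental cells and 1.63, 1.28 and 1.17 in OTX P/R cells, again with overlap.

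SP2, a less studied relative on chromosome 17, was at nearly the same level in both lines. Its values were 9.05, 8.29 and 8.49 in the parental libraries and 8.85, 8.53 and 8.37 in the OTX P/R libraries, all within one narrow band. The means of 8.61 ± 0.392 and 8.58 ± 0.243 gave a difference of -0.00 ± 0.06 (SE; interval -0.14 to 0.14). An antisense gene, SP2-AS1, overlaps it, and it is not stated whether the abundances were computed by strand. SP4, an SP1-like activator best known from neurons, on chromosome 7, was the lowest of these 4 widely known SP factors. It stood at 1.29, 0.898 and 1.17 in parental cells and at 1.24, 1.14 and 1.45 in OTX P/R cells, with overlapping groups. The means were 1.12 ± 0.200 and 1.28 ± 0.160, and the difference was 0.11 ± 0.10 (SE; interval -0.14 to 0.35).

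SP6, also called epiprofin, is a factor of epithelia known for tooth, hair and limb development. This gene on chromosome 17, ENSG00000189120.4 in the table, stood at 0.133, 0.205 and 0.230 in the parental libraries and at 7.52, 7.72 and 7.76 in the OTX P/R libraries. Every OTX P/R library was far above every parental library, and the 3 OTX P/R values were close to each other. The means were 0.189 ± 0.0501 and 7.67 ± 0.132, a ratio of 40.5 that rests on a parental level near 0. Its difference was 2.87 ± 0.06 (SE; interval 2.71 to 3.02), the 9th largest of the 1998 called rises and larger in size than those of 99.7% of the tested genes. With a pseudocount of 0.1 it was 4.76 and with one of 5 it was 1.29. Among all genes of the table SP6 moved from percentile 38.1 to percentile 68.5. It reached the minimum for testing only through the OTX P/R libraries. In these bulk samples, more cells that express SP6 and more SP6 RNA per cell cannot be told apart.

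The rise of SP6 changed the make-up of the SP group. SP6 made up 0.365%, 0.639% and 0.685% of the summed abundance of the 5 SP members in the parental libraries and 18.3%, 18.6% and 18.1% in the OTX P/R libraries. The sum of SP1, SP2, SP3 and SP4 was 36.4, 31.9 and 33.3 in parental cells against 33.6, 33.7 and 35.1 in OTX P/R cells, so these sums overlapped. With SP6 added, the sums were 36.5, 32.1 and 33.5 against 41.2, 41.5 and 42.9 and no longer overlapped. In OTX P/R cells the level of SP6 was that of KLF3 and a little under those of SP2 and KLF10.

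KLF10 and KLF13 belong to the KLF factors that recruit SIN3A, and KLF10 was first described as an early gene induced by TGF-beta. KLF10, on chromosome 8 (ENSG00000155090.14), stood at 5.56, 5.73 and 5.78 in the parental libraries and at 7.91, 8.32 and 8.89 in the OTX P/R libraries. All OTX P/R libraries lay above all parental ones, and OTX P/R library 3 was the highest. The means were 5.69 ± 0.117 and 8.37 ± 0.490, a ratio of 1.47, and the difference was 0.49 ± 0.06 (SE; interval 0.34 to 0.63). Among the 1998 called rises it ranked 952nd by size. KLF13, a regulator of the chemokine CCL5 in T cells, on chromosome 15, was the most abundant of the 10 members. It stood at 20.0, 17.1 and 17.3 in parental cells and at 15.9, 17 and 17.4 in OTX P/R cells, with overlap and with parental library 1 above the other 5. The difference was -0.11 ± 0.08 (SE; interval -0.29 to 0.08), from 18.1 ± 1.61 to 16.8 ± 0.788.

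KLF3, a repressor that works through CtBP, on chromosome 4, stood at 7.91, 7.27 and 7.89 in the parental libraries and at 7.64, 7.51 and 7.55 in the OTX P/R libraries. The OTX P/R values lay inside the parental range. With means of 7.69 ± 0.365 and 7.56 ± 0.0650, the difference was -0.02 ± 0.06 (SE; interval -0.16 to 0.12). KLF3-AS1 overlaps this gene on the other strand.

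KLF6, a widely expressed factor described as a tumor suppressor in several tissues, on chromosome 10 (ENSG00000067082.14), stood at 2.86, 2.68 and 2.61 in the parental libraries and at 1.38, 1.13 and 1.33 in the OTX P/R libraries. Every OTX P/R library was below every parental library. The parental mean of 2.72 ± 0.132 was 2.12 times the OTX P/R mean of 1.28 ± 0.135. The difference was -0.71 ± 0.07 (SE; interval -0.89 to -0.52), the 653rd largest of 1881 called falls. It was -1.03 with a pseudocount of 0.1 and -0.30 with one of 5. Because KLF6 and KLF10 moved in opposite directions, KLF10 was 1.94, 2.14 and 2.22 times as abundant as KLF6 in the parental libraries and 5.72, 7.38 and 6.69 times in the OTX P/R libraries.

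KLF2, known for lymphocyte quiescence and for the response of endothelium to flow, on chromosome 19, was near the bottom of the table. Its values were 0.0516, 0.0625 and 0.0161 in parental cells and 0.116, 0.150 and 0.0716 in OTX P/R cells. The groups did not overlap, with OTX P/R above, but every library was far under the minimum mean of 1. The means were 0.0434 ± 0.0243 and 0.113 ± 0.0392, and the gene was not called when the minimum was dropped. For comparison, 3 of the 9 tested members (SP6, KLF10 and KLF6) had groups that did not overlap, against 51.6% of all tested genes. Parental library 1 was the highest of its group in 7 of the 9 tested members, while it was the highest in 34.2% of all tested genes, and OTX P/R library 3 was the highest of its group in 5 of 9, against 35.6%. KLF6 is among the 7, and SP6 and KLF10 are among the 5. The part of single libraries in the differences of the 6 members that were not called was not tested beyond leaving each library out. Without parental library 1 the difference of SP1 was 0.02 in place of -0.05. Leaving out any 1 library left SP6 between 2.83 and 2.89, KLF10 between 0.45 and 0.52 and KLF6 between -0.74 and -0.66, each still called.

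The table held 17 further KLF and SP genes, of which 5 reached the minimum mean. Of these 1 was higher, 1 was lower and 3 were not called, or 40% called against 36.1% of all tested genes, with a median difference of -0.13. KLF16, a SIN3A-recruiting relative of KLF10 and KLF13, stood at 19.5, 19.8 and 18.3 in parental cells and at 25.2, 24.7 and 25.4 in OTX P/R cells. It rose without overlap, by 0.37 ± 0.05 (SE; limma adjusted p = 0.00229). KLF12, a CtBP-recruiting relative of KLF3, went from 3.74, 3.38 and 3.58 to 2.11, 2.05 and 2.15. It fell without overlap, by 0.56 on the log2 scale (SE 0.06; limma adjusted p = 0.00111). KLF9 (1.82 ± 0.170 and 2.01 ± 0.0848; adjusted p = 0.368) and KLF11 (2.33 ± 0.454 and 2.04 ± 0.385; adjusted p = 0.499), both also SIN3A-recruiting, were not called by limma.

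KLF1, the erythroid factor, was by far the most abundant gene of the family, with 308.1, 301.9 and 280.9 in the parental libraries and 264.5, 276.8 and 267.9 in the OTX P/R libraries. All OTX P/R libraries lay below all parental ones, by a small margin. The means were 296.9 ± 14.3 and 269.7 ± 6.37, and the difference of -0.14 ± 0.05 (SE) was not called (limma adjusted p = 0.0779). Without parental library 3 it was called lower (limma adjusted p = 0.0363). KLF1 alone made up 75.1%, 76.4% and 74.9% of the summed abundance of all 27 KLF and SP genes in the parental libraries and 71.3%, 72.2% and 70.8% in the OTX P/R libraries. The sum over the 10 members was 72.9, 64.9 and 67.1 in parental cells against 74.1, 75.5 and 78.2 in OTX P/R cells. These sums include the rise of SP6. The KLF members alone summed to 36.4, 32.8 and 33.6 against 32.9, 34.1 and 35.3. Those sums overlapped, as did the sums of SP1, SP2, SP3 and SP4 given above.

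**Figure D2:**
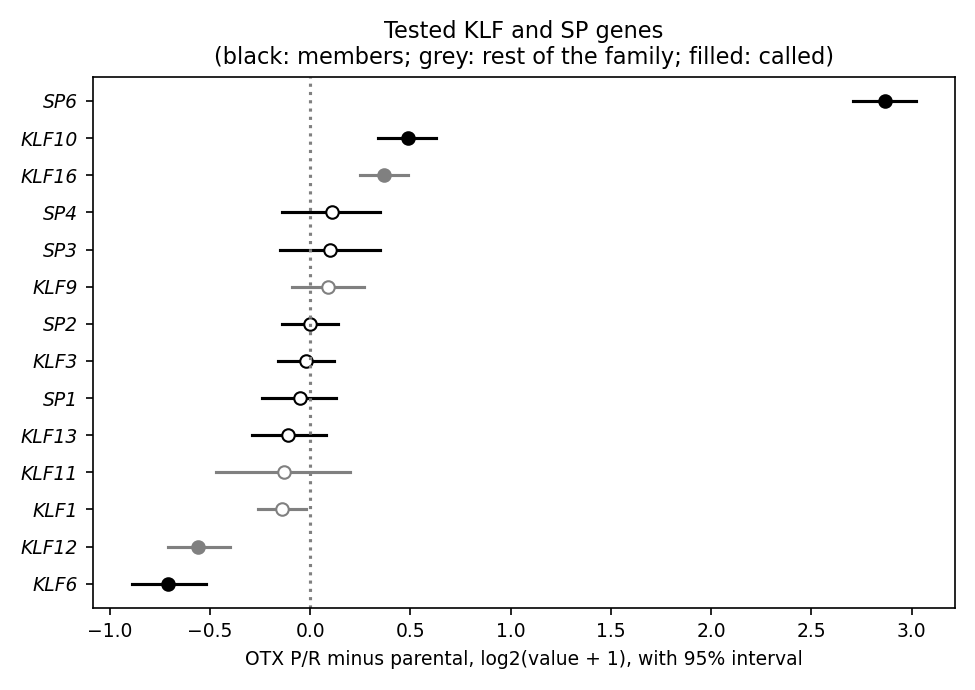
Difference between OTX P/R and parental libraries, on the scale log2(value + 1), for the 14 KLF and SP genes with a mean of at least 1. Points are estimates from limma over 3 libraries per group and bars are 95% intervals; members are black, other family genes grey, and filled points were called. SP6 at 2.87 stands far to the right of all others, which lie between -0.71 for KLF6 and 0.49 for KLF10.

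The order of the family by level was alike in both lines except for a few genes. In parental cells KLF1 was followed by KLF16, KLF13, SP1, SP3, SP2, KLF3, KLF10, KLF12, KLF6, KLF11, KLF9 and SP4. The ranges over the libraries overlapped between KLF16 and KLF13, between SP3 and SP2, between KLF6 and KLF11 and between KLF11 and KLF9, so those neighbours do not differ beyond their spread. SP6 was 16th of 27 there, and its range overlapped that of SP9, a factor of limb and brain development. In OTX P/R cells the order began KLF1, KLF16, KLF13, SP1, SP3, SP2, KLF10, SP6 and KLF3, with overlapping ranges between SP2 and KLF10 and between SP6 and KLF3. SP6 was 8th in that order, and KLF6 had moved from 10th to 13th, level with SP4.

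Tested genes next to the members in gene order on the chromosome were compared to see whether a whole neighbourhood moved. No limit was set on their distance in bases, so a neighbour in this order may lie far from the member. SP6 and SP2 are neighbours on chromosome 17. Of the 5 tested genes on each side of SP6, 2 were higher and none lower, with a median difference of 0.03. Over all tested genes, 18.6% were called higher and 17.5% lower. TBKBP1, an adaptor of the kinase TBK1, rose from 5.23 ± 0.184 to 9.32 ± 0.299, by 0.73 ± 0.06 (SE; limma adjusted p = 0.000247). Of the 10, 8 were not called, at 0.06 for KPNB1, 0.10 for OSBPL7, 0.12 for MRPL10, -0.06 for SCRN2, -0.00 for SP2, -0.04 for CDK5RAP3, -0.06 for NFE2L1 and -0.23 for CBX1. The running median over 25 tested genes around SP6 and SP2 was 0.13.

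Of the 10 tested neighbours of KLF6, 5 were lower, 1 was higher and 4 were not called, with a median of -0.35, where 17.5% of all tested genes were called lower. The 3 tested genes that follow it in gene order are aldo-keto reductases, which reduce steroids and other carbonyl compounds. On the other side the nearest tested gene is PITRM1. AKR1C3 fell from 34.0 ± 1.68 to 13.8 ± 0.830, by 1.24 on the log2 scale (SE 0.06; limma adjusted p = 5.81e-05). AKR1C2 fell from 5.38 ± 0.378 to 1.84 ± 0.337 and AKR1C1 from 10.4 ± 0.734 to 4.73 ± 1.06. These copies are so alike that reads could be split among them, which makes their single values uncertain. ASB13 and PITRM1 were also lower, with differences of -0.53 and -0.25, and IDI1 was higher at 0.38. The end of chromosome 10 is too near for a running median at KLF6, since 8 tested genes precede it. Whether the fall of KLF6 belongs with that of its neighbours was not tested.

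KLF13, itself not called, had 6 higher neighbours of 10 and a median of 0.47, where 18.6% of all tested genes were called higher. Of the 6, 5 are copies of GOLGA8, a golgin gene with near-identical copies on chromosome 15, and their values are uncertain for the same reason. GOLGA8O had the largest of these differences, 0.71 ± 0.11 (SE), from 6.18 ± 1.05 to 10.7 ± 0.640 (limma adjusted p = 0.00452). GOLGA8Q was at 0.61, GOLGA8R at 0.52, GOLGA8N at 0.50 and GOLGA8K, which reached the minimum only through the OTX P/R libraries, at 0.45, and FAN1, a nuclease of DNA repair, at 0.22. The call of GOLGA8Q was lost without OTX P/R library 1, 2 or 3 or parental library 2 or 3, that of GOLGA8R without OTX P/R library 2 or 3, that of GOLGA8K without parental library 2 or 3, and that of FAN1 without OTX P/R library 1, 2 or 3 or parental library 1 or 2.

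Around the remaining members the neighbours moved in both directions or hardly at all, where 36.1% of all tested genes were called. FZD6, a Wnt receptor, was the only called neighbour of KLF10 and rose from 1.32 ± 0.244 to 3.33 ± 0.196, by 0.90 ± 0.10 (SE; limma adjusted p = 0.000924). Near SP4, TWIST1, a mesenchymal transcription factor, was lower (-0.96), as were TSPAN13 (-0.40) and TOMM7 (-0.21), and NUPL2 was higher (0.37). Near SP3, DLX1 (-0.59), AC013461.1 (-0.49) and CIR1 (-0.24) were lower and CDCA7 was higher (0.49). Near SP1, MAP3K12 (0.59) and ESPL1 (0.44) were higher and C12orf10 was lower (-0.32). Near KLF3, PGM2 (0.49) and KLHL5 (0.35) were higher and SMIM20 (-0.32) and RPL9 (-0.22) lower. Of these calls, CIR1 was lost whichever of the 6 libraries was left out, TOMM7 without OTX P/R library 1, 2 or 3 or parental library 2 or 3, NUPL2 without OTX P/R library 1, 2 or 3 or parental library 1 or 3, and RPL9 without library 2 or 3 of either line. The medians of these 5 neighbourhoods lay between -0.11 and -0.03.

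**Figure D3:**
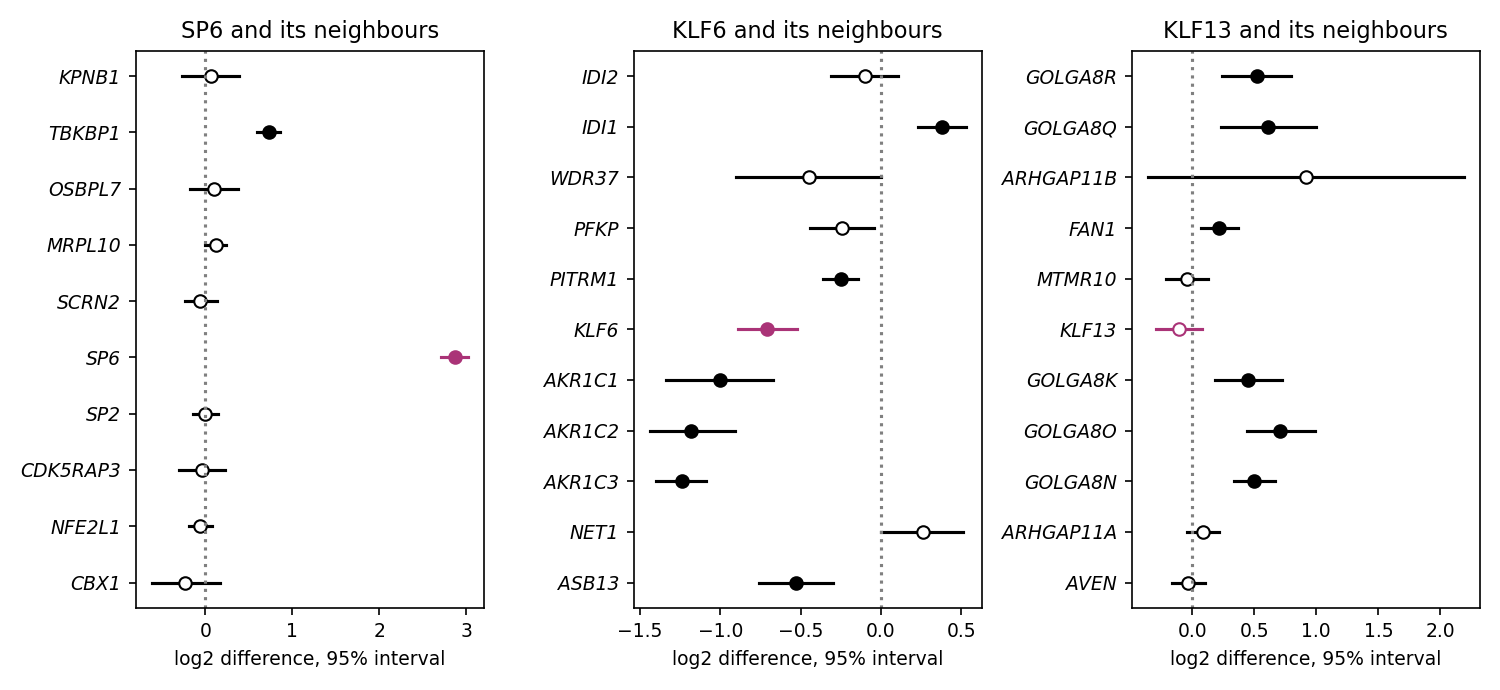
Differences of SP6, KLF6 and KLF13 (coloured) and of tested genes on each side of them in gene order, on the scale log2(value + 1); bars are 95% intervals from limma over 3 libraries per group and filled points were called. SP6 at 2.87 stands alone among neighbours between -0.23 and 0.73, KLF6 at -0.71 lies beside 3 AKR1C genes at -1.0 to -1.24, and KLF13 at -0.11 lies among higher GOLGA8 copies.

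The genes whose profile over the 6 libraries was nearest to that of SP6, by Euclidean distance between log2(value + 1) values from which the parental mean was subtracted, were NNMT, MSX1, NID1, PLEKHA7 and EPB42. NNMT, which methylates nicotinamide, had a distance of 0.242 and stood at 1.48, 1.76 and 1.74 in parental cells and at 19.9, 21.2 and 19.6 in OTX P/R cells. MSX1, a homeobox factor of tooth and limb development, had a distance of 0.370 and was listed at 0 in each parental library and at 5.32, 5.79 and 5.03 in the OTX P/R libraries. NID1, a basement membrane protein, followed at 0.380, PLEKHA7, an adherens junction protein, at 0.387 and EPB42, which anchors the membrane skeleton of red cells, at 0.448. All 5 were near 0 or low in every parental library and between 5.03 and 21.2 in every OTX P/R library. Their likeness to SP6 follows from 1 step between 2 lines, and they lie on chromosomes other than that of SP6. Like SP6, the genes MSX1, NID1, PLEKHA7 and EPB42 had parental means under 1. They reached the minimum only through the OTX P/R libraries, so they had to be higher there.

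The genes of proteins through which KLF and SP factors act were read against the 36.1% called over all tested genes. Of 12 corepressor genes, all tested, 1 was higher, 0 were lower and 11 were not called, or 8.33% called, with a median of 0.07. RCOR1, the CoREST scaffold, rose from 15.2 ± 0.763 to 19.7 ± 0.575 (limma adjusted p = 0.00473). SIN3A, the partner of KLF10 and KLF13, had a difference of 0.04 ± 0.16 (SE). CTBP1 and CTBP2, partners of KLF3, had differences of -0.20 ± 0.22 (SE) and 0.35 ± 0.22 (SE). With errors of this size, the lack of a call does not show that these genes were unchanged. Of 14 coactivator genes, 1 was higher, 3 were lower and 10 were not called, 28.6% in all, with a median of -0.03. The acetyltransferase genes KAT2B and KAT2A moved in opposite directions, KAT2B from 2.48 ± 0.0671 to 3.45 ± 0.113 (limma adjusted p = 0.0055) and KAT2A from 19.7 ± 1.43 to 12.8 ± 0.748 (limma adjusted p = 0.00169). TAF7, a subunit of the TFIID complex that SP1 contacts, fell from 26.0 ± 1.19 to 20.8 ± 0.492 (limma adjusted p = 0.00624). MED1, a Mediator subunit, fell from 12.9 ± 1.88 to 9.20 ± 1.23 (limma adjusted p = 0.0414), a call lost without OTX P/R library 1, 2 or 3 or parental library 1 or 3. Of 14 other zinc finger genes whose proteins bind GC-rich sites, 9 were tested and 1 was called, or 11.1%: PATZ1 rose from 21.1 ± 0.408 to 27.5 ± 0.344 (limma adjusted p = 0.00131). The median of these 9 was 0.17.

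Genes known as targets of the family were called in both directions. Of 15 erythroid genes with CACCC boxes bound by KLF1, 13 were tested, 5 were higher, 2 lower and 6 not called, 53.8% called against 36.1% of all tested genes, with a median of -0.09. EPB42 stood at 0.778 ± 0.398 and 12.5 ± 0.501 and was called higher. KEL, a blood group protease, rose from 2.10 ± 0.208 to 3.16 ± 0.500, a call lost without OTX P/R library 2 or 3 or parental library 1 or 3. HBB, adult beta globin, stood at 2.96 ± 0.530 and 0.615 ± 0.302 and was called lower. Both EPB42 and HBB had a mean under 1 in a line and reached the minimum through the line where they were high, so they had to differ, and the share called leans on them. TFRC, the transferrin receptor, fell from 219.1 ± 30.2 to 144.2 ± 6.53 (limma adjusted p = 0.00597). KLF1 itself, as given above, was not called.

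Of 10 genes known to follow KLF2 in lymphocytes and endothelium, 7 were tested, 4 were higher, 1 lower and 2 not called, 71.4% called against 36.1% of all tested genes, with a median of 0.59. THBD, the endothelial thrombin receptor thrombomodulin, stood at 0.580, 0.591 and 0.472 against 3.57, 3.99 and 3.81. NOS3, endothelial nitric oxide synthase, stood at 0.744, 0.316 and 1.24 against 4.08, 3.55 and 3.37. IL6R, the interleukin 6 receptor, stood at 0.834 ± 0.0914 and 2.35 ± 0.703. These 3, all called higher, had parental means under 1 and reached the minimum through the OTX P/R libraries, so they had to differ, and the share called and the median of the list lean on them. ITGB7, a homing integrin that KLF2 represses, fell from 10.8 ± 0.817 to 1.36 ± 0.0173, by 2.32 on the log2 scale (SE 0.07; limma adjusted p = 1.13e-05). KLF2 itself stayed between 0.0161 and 0.150 in all libraries.

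Of 15 genes with GC boxes known to be driven by SP1 and SP3, 12 were tested, 4 were higher, 2 lower and 6 not called, 50% called against 36.1% of all tested genes, with a median of 0.21. VEGFA, the vascular growth factor, rose from 16.3, 11.7 and 22.0 to 63.7, 67.7 and 38.1 (limma adjusted p = 0.00618), with a wide spread in both groups. ODC1, the first enzyme of polyamine synthesis, rose from 174.9 ± 7.65 to 251.7 ± 5.37 (limma adjusted p = 0.000476), and BIRC5, survivin, from 40.2 ± 0.375 to 48.5 ± 2.87 (limma adjusted p = 0.0126). MAOB, monoamine oxidase B, stood at 2.67 ± 0.484 and 0.313 ± 0.0301 and was called lower, but it reached the minimum only through the parental libraries. ITGAM, a myeloid integrin, fell from 8.13 ± 0.237 to 3.45 ± 0.411 (limma adjusted p = 0.000262). Of 13 genes of early TGF-beta signalling, the signal that induces KLF10, 9 were tested, 2 were higher, 2 lower and 5 not called, 44.4% called against 36.1% of all tested genes, with a median of 0.02. LTBP3, which holds latent TGF-beta, rose from 4.43 ± 0.857 to 7.38 ± 0.198 (limma adjusted p = 0.00845), and SKI, a corepressor of SMADs, from 10.4 ± 0.206 to 13.3 ± 1.57 (limma adjusted p = 0.0321). TGIF1, a homeodomain corepressor of the pathway, fell from 11.3 ± 3.43 to 5.13 ± 0.365 (limma adjusted p = 0.0139), and SMAD2, a signal carrier, from 14.2 ± 4.01 to 6.85 ± 1.55 (limma adjusted p = 0.0257). The SKI call was lost without OTX P/R library 2 or 3 or parental library 1, 2 or 3, and that of SMAD2 without OTX P/R library 1 or 3 or parental library 2 or 3.

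**Figure D4:**
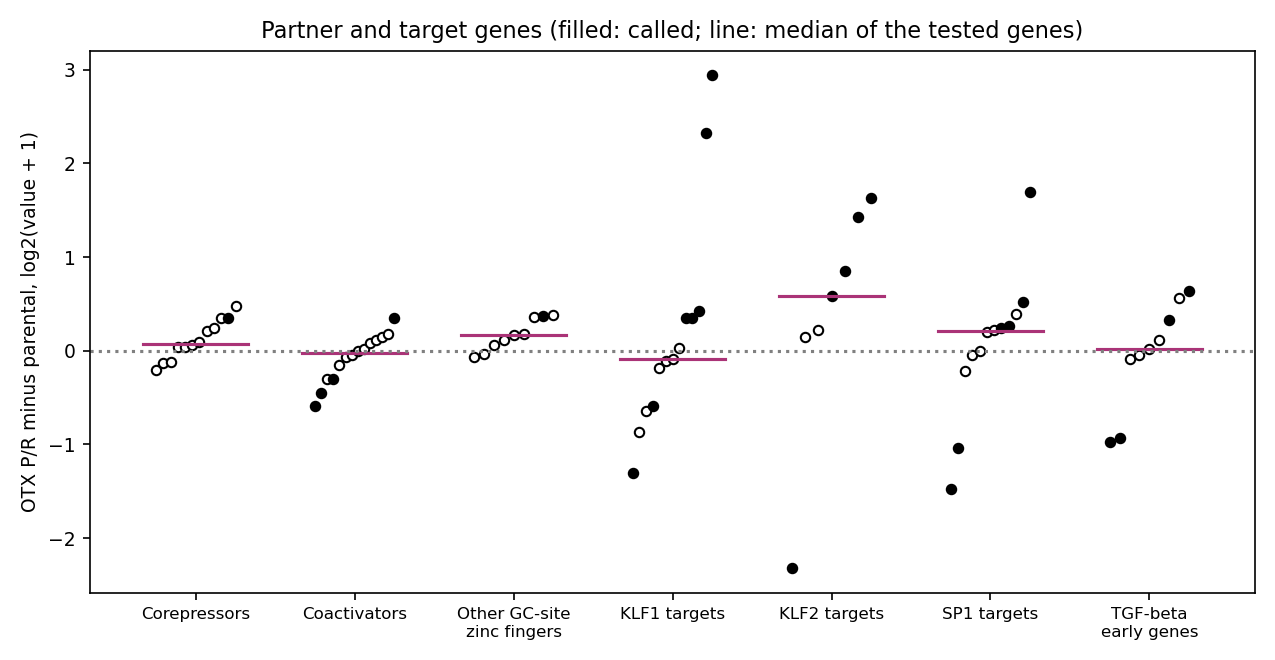
Difference of each tested gene of 7 lists of partners and targets, OTX P/R minus parental on the scale log2(value + 1), estimated with limma over 3 libraries per group. Points are genes in rising order within a list, filled points were called, and lines are medians. The estimates of corepressor genes lie between -0.20 and 0.48, while those of targets of KLF2 reach from -2.32 for ITGB7 to 1.63 for THBD.

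The identity of the cells was checked with markers. For comparison, 36.1% of all tested genes were called, 18.6% higher and 17.5% lower. Of 10 megakaryocyte and erythroid markers, 9 were tested, 5 were higher and 2 lower, and their summed level was 748.9 to 762.0 in parental and 734.2 to 736.4 in OTX P/R libraries. GATA1 stood at 188.7 ± 4.90 and 203.9 ± 3.87, and PF4 was listed at 0 in all 6 libraries. Of 9 stromal, endothelial and epithelial markers, 2 were tested and both were higher, with sums of 16.9 to 20.3 against 30.8 to 34.3. PECAM1 of endothelium and platelets rose from 7.90 ± 0.616 to 15.3 ± 0.541, and KRT18, a keratin, from 9.52 ± 0.884 to 14.3 ± 1.20. Of the 7 under the minimum mean, COL1A1 stood at 0.0732 ± 0.0362 and 1.92 ± 0.0654, CDH5 at 0.00216 ± 0.00191 and 0.245 ± 0.0184, KRT8 at 0.587 ± 0.473 and 0.775 ± 0.345, CDH1 at 0.369 ± 0.298 and 0.240 ± 0.127, and EPCAM at 0.0336 ± 0.0141 and 0.0440 ± 0.0333, while COL3A1 and DCN were near 0 in both lines. Of 8 T and NK cell markers, 3 were tested and all 3 were lower, with sums of 72.0 to 78.6 against 30.9 to 33.3. NKG7 fell from 62.2 ± 2.64 to 29.6 ± 1.31 and GNLY from 6.01 ± 0.302 to 1.52 ± 0.198, while CD3D stood at 5.24 ± 1.05 and 0.593 ± 0.226. CD3D reached the minimum only through the parental libraries, so it had to differ, and the count of lower markers leans on it. CD2, under the minimum mean, stood at 1.44 ± 0.167 and 0.105 ± 0.0536, and CD3E was near 0 in both lines at 0.00994 ± 0.00903 and 0.0174 ± 0.00756. Of 5 B cell markers, 2 were tested and both were lower, with sums of 13.8 to 16.1 against 9.99 to 10.9, and MS4A1 was listed at 0 throughout. Of 8 monocyte and granulocyte markers, 2 were tested and 1 was lower, with sums of 94.9 to 108.6 against 84.3 to 106.0, and S100A8 was listed at 0 in all libraries. The part of these shifts in the differences of the members was not tested.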

How the data were processed

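Total RNA of 3 parental and 3 OTX P/R cultures was sequenced. Per the submitters' processing notes, reads were handled with Trim Galore, HISAT2 and StringTie on hg19, and no tool version is given in those notes. The deposited table holds a linear signal, 1 StringTie abundance for each gene and library, and whether the authors used FPKM or TPM is not given in the sources used here. When sorted, the libraries agreed to within 0.243% for values of at least 1, so the table is quantile-normalized: depth and total RNA are not kept, and no counting intervals are given.

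Of 19785 genes, 6 with a missing value were left out. Groups came from the sample titles. Values were transformed as log2(value + 1), and limma 3.58.1 in R 4.3.3 was run on the genes whose mean was 1 or more (lmFit, eBayes with trend, two-sided, with Benjamini-Hochberg adjustment over those genes and a threshold of 0.05). The procedure was tested on simulated data. Exact permutation of 3 against 3 libraries cannot give a two-sided p under 0.1. The members and lists were chosen with earlier results of these data known. Named genes are the 10 members, the other KLF and SP genes, up to 3 called genes per direction of each list, the called genes among 5 tested neighbours on each side of a member (all for SP6), and the 5 genes nearest to SP6; a few that this takes in are not reported here. Gene order and chromosomes came from GENCODE 29, which is not on the authors' build and matched 19528 genes by identifier. Promoters came from RefSeq on GRCh38.p14; windows of SP6, KLF3 and KLF10 were not used here. Correlations of the deviations of same-numbered libraries were -0.065, -0.028 and -0.000, so the replicate numbers were not taken as pairs. Alternatives were other pseudocounts (0.1 and 5), other minimum means (none and 5), other variance priors, median centring, a replicate block and each library left out. Tables and plots were made with Python 3.11.15, pandas 2.3.3, NumPy 2.4.6 and Matplotlib 3.10.9.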

Additional observations from a re-analysis of the deposited data

How the results depend on the processing

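Over 68 named genes and all alternatives, 853 of 925 values kept their direction and their side of the threshold, 68 kept the direction but were no longer called, 1 was newly called (KLF1 without parental replicate 3) and 3 changed sign, none of them called: SP1 was at 0.02 without parental replicate 1, and SP2 at 0.03 without parental replicate 1 and at 0.01 without OTX P/R replicate 3. With single libraries left out SP1 ranged from -0.09 to 0.02 and SP2 from -0.03 to 0.03. Every tested member kept its call or lack of one under each alternative in which it was tested. With a minimum mean of 5, which removes SP6, KLF6 and SP4 from the test, 1 member was higher and 0 were lower, 0 other KLF and SP genes were lower, 0 coactivators and 0 KLF2 targets were higher, and 1 KLF1 target and 1 SP1 target were lower. Without a minimum, 4 other KLF and SP genes were higher and 3 lower, and 2 KLF2 targets were lower. A prior without trend gave 2 higher coactivators. The replicate block gave 2 higher corepressors and 1 higher TGF-beta gene, and 1607 higher and 1552 lower genes over the table; it ended no call of a member. With single libraries left out, lower genes of the rest of the family numbered 1 to 2, higher corepressors 1 to 2, higher GC-site zinc fingers 1 to 2, and higher and lower TGF-beta genes 1 to 2 each, while 1516 to 1783 genes of the table were higher and 1492 to 1670 lower. The depth is unknown, so how far it limits the low values of KLF2, SP4 and parental SP6 cannot be stated.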

Other observations

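The 12 KLF and SP genes outside the members that lay under the minimum mean also differed between the lines in places. KLF15, a metabolic regulator of muscle, liver and fat, stood at 0.435, 0.503 and 0.384 in parental libraries and at 0.0705, 0.0471 and 0.0591 in OTX P/R libraries. SP5, a Wnt-induced factor of the SP group, stood at 0.313, 0.245 and 0.303 against 0.120, 0.126 and 0.107. In both genes every OTX P/R library was lower, and both were called lower when limma was run without a minimum (adjusted p = 0.000631 for KLF15 and 0.00257 for SP5). KLF8, a CtBP-recruiting relative of KLF3, stood at 0.0384, 0.0148 and 0.0458 against 0.110, 0.147 and 0.103 and was called higher in that run (adjusted p = 0.0104). SP7, the bone factor osterix, had means of 0.00589 and 0.0527 and KLF17 had means of 0.00335 and 0.0274, both called higher there at levels near 0. KLF5 had means of 0.143 ± 0.0485 and 0.0736 ± 0.00597 and was not called (adjusted p = 0.0974). SP8, SP9, KLF7 and KLF14 overlapped between the lines, and KLF4 and KLF18 were listed at 0 in all libraries. Each of these 12 genes was lower in every library than SP4 was in any.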
